A study of Mus musculus with 194 samples.

Results

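The cells described here were activated primary mouse CD8+ T-cells, each sequenced alone after its family had been followed in culture. They were taken as all libraries named as CD8+ cells, without those labelled as doublets and without those with fewer than 1000 genes above 0 TPM (transcripts scaled to length and to a total of 1000000 per library). Of the libraries so named 4 were doublets and 5 others had too few genes, so 97 cells were retained of the 178 retained in the whole series of 194. The comparison group was 81 cells of L1210, an established mouse lymphocytic leukemia line, which passed the same filter from 88 libraries.

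The T-cells came from C57BL/6J spleens, were purified with a kit for CD8a, so that Cd8a is no independent finding, and were activated for 30 h with 5 µg/mL plate-bound anti-CD3 and 2 µg/mL soluble anti-CD28, antibodies that engage the T-cell receptor complex and its costimulatory partner. They were then grown in the traps of a microfluidic device, in medium with 10% serum, 100 U/mL interleukin 2 and 55 µM 2-mercaptoethanol, while L1210 cells grew in the same base medium without interleukin 2 or 2-mercaptoethanol and without activation. There were no resting and no unstimulated CD8+ T-cells. Cell origin, activation and medium therefore differ together between both groups and cannot be told apart in the comparison with L1210. L1210 is 1 line, and the labels name neither the mouse nor the culture of a T-cell.

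Sister and cousin labels joined 90 of the T-cells into 27 lineages, of which 16 kept 4 cells, 4 kept 3 and 7 kept 2. The other 7 T-cells carry no sister or cousin label and were each counted as a lineage of 1 cell, which assumes that they are unrelated, so 34 lineages enter the comparisons. L1210 cells formed 26 lineages. Lineages are the replicates below, so p-values measure the spread between lineages, except in the test between lineages. There single cells are the units, and p-values rest on the spread between cells of 1 lineage. Cells of 1 lineage also share their lane, their founder's mouse and their handling. Time since the last division was recorded for 94 of the T-cells and ran from 0.5 to 9.475 h with a median of 4.41 h.

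A CD8+ T-cell recognises peptide on class I molecules through an αβ T-cell receptor, whose signal leaves through the CD3 chains and the zeta chain. The CD8 coreceptor, a dimer of CD8α and CD8β, binds the same class I molecule and brings the kinase Lck to the receptor. Once activated, the cell divides quickly, takes up interleukin 2 through its receptor, and fills cytotoxic granules, whose main content, granzyme B, induces death in target cells. Resting T-cells hold little granzyme B, and the enzyme builds up during the days after activation.

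Each library held 1 cell, so no cell barcodes were shared between libraries. TPM keep no read depth, and the number of genes above 0 TPM is given in its place. It ran from 2639 to 10905 with a median of 6862 in T-cells and from 1610 to 10454 with a median of 8402 in L1210 cells. Rn45s, the precursor of ribosomal RNA, made up 21.3% ± 8.54 of the TPM (SD, n = 97 cells) in T-cells and 22.3% ± 8.40 (SD, n = 81 cells) in L1210 cells. Genes that every cell needs can also be listed at 0, as the glycolytic gene Tpi1 was in 1 T-cell, so a 0 below says only that a gene was listed at 0. TPM are scaled for transcript length, so levels of different genes can be set beside each other.

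Some libraries went against their labels or stood apart. In the lineage of cells CD8_83, CD8_84, CD8_85 and CD8_86, Cd8a was at 1.87, 0, 0 and 0 TPM and Cd8b1 was listed at 0 in all 4 cells, whereas Cd3e was between 408 and 557 TPM and Gzmb between 2102 and 5274 TPM. Cd4 was listed at 0 in these 4 cells. By these genes they were T-cells almost without CD8 transcripts. This lineage, number 29, is called the CD8-low lineage, and results that rest on it are given with and without it. Transcripts of Xist, from the inactive X chromosome, and of Y-linked genes divided the cells: 40 cells had over 5 TPM of Xist only, 46 of the Y-linked genes only, 1 of both and 10 of neither. By lineage, 13 carried Xist, 17 carried Y-linked transcripts and 1 lineage of 1 cell carried neither, while 3 lineages of 2 cells each (cells CD8_14, CD8_16, CD8_17, CD8_18, CD8_19 and CD8_20) carried both. A founder has 1 sex, so the relation labels of the 3 lineages counted as carrying both are treated as doubtful. Both kinds of transcript also stood within 1 cell, so the mix is not only one between cells. A lineage was counted as carrying 1 kind when that kind exceeded the other more than 10-fold. Lineage 4, counted as carrying Xist, still had 7.45 TPM of Y-linked transcripts beside 255.94 of Xist, summed over its cells. What gave the mixed transcripts was not tested. The test between lineages is given with and without these 3 lineages. Mice of both sexes had thus contributed founders, and sex and mouse cannot be told apart from lineage.

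The 4 genes that mark these cells are Cd3e (chromosome 9, 44998740 to 45009627, minus strand), Cd8a (chromosome 6, 71373427 to 71379173, plus strand), Cd8b1 (chromosome 6, 71322788 to 71337494, plus strand) and Gzmb (chromosome 14, 56258838 to 56262260, minus strand), with positions from GENCODE vM21 on GRCm38, the build the files use. They were found together in most of them: 83 cells had all 4 above 0 TPM, 11 had 3 and 3 had 2. The promoters of Cd3e, Cd8a and Gzmb are shown because these genes mark the cells by the receptor, the coreceptor and the effector function. Cd8b1 had no entry in the promoter table. The sequences come from RefSeq on GRCm38.p6 and span the 250 bases before the start site, 5′ to 3′ on the gene's strand. Capitals mark matches, on either strand, to 4 short motifs: RUNX (TGTGGT), ETS (AGGAAG), AP-1 (TGANTCA) and TCF/LEF (CTTTGA). No pair of marked matches overlaps.
Cd3e, chr9:45009612-45009861, minus strand: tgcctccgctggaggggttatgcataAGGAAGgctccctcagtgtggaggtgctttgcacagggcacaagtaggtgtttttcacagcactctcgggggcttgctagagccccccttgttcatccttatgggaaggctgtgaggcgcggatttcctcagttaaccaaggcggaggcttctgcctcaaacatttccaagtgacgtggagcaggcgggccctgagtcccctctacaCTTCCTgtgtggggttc
Cd8a, chr6:71373177-71373426, plus strand: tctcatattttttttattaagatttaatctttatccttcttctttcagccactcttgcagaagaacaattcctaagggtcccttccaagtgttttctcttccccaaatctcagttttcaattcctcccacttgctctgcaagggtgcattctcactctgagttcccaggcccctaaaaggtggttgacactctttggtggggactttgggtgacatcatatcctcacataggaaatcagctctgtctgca
Gzmb, chr14:56262335-56262584, minus strand: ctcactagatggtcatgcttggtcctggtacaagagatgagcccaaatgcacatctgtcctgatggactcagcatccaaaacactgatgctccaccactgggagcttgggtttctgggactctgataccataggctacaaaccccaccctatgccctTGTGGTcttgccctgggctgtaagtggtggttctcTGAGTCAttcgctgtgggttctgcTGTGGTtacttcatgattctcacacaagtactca
The Cd3e promoter held 2 ETS matches, that of Gzmb held 2 RUNX matches and 1 AP-1 match, and that of Cd8a held none. Of 32851 mouse promoters of this length, 14.045% held the RUNX letters, 29.5% the ETS letters, 6.75% the AP-1 letters and 13.8% the TCF/LEF letters. These matches are a description of the letters in these windows.

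Cd3e, a signalling chain of the T-cell receptor, was above 0 in all 97 T-cells, at 2.42 TPM in the lowest, 571 at the median and 2322 in the highest cell. It was listed at 0 in all 81 L1210 cells. The lineage means of ln(TPM + 1) ran from 5.08 to 7.21 with a median of 6.33, so the narrow upper band of T-cells and the line at 0 of L1210 did not overlap. The difference of means was 6.29 ± 0.13 (SE, natural log units, 34 against 26 lineages, limma adjusted p = 3.89e-52).

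Cd8a was above 0 in 94 T-cells, at 364 TPM at the median and 924 TPM in the highest cell, against 0 to 9.74 TPM in L1210 cells. Lineage means ran from 0.26, the CD8-low lineage, to 6.56 with a median of 5.79, and 33 of 34 lineages lay above the highest L1210 lineage. The difference was 5.50 ± 0.22 (SE, limma adjusted p = 5.28e-35) and 5.67 without that lineage (limma adjusted p = 1.54e-47). Cd8b1, the β chain, was above 0 in 93 T-cells at a median of 806 and a highest value of 2128 TPM. Its transcripts were not absent from L1210: 23 of 81 cells had some, up to 31.8 TPM, and the highest L1210 lineage mean was 3.14. The difference was 5.62 ± 0.29 (SE, limma adjusted p = 3.33e-28) and 5.81 without the CD8-low lineage (limma adjusted p = 7.40e-37).

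Gzmb, which encodes granzyme B, was above 0 in 87 T-cells and in 1 L1210 cell, at 5.01 TPM. Over T-cells it ran from 0 to 7488 TPM with a median of 607, and over lineages from 0.20 to 8.82 on the ln(TPM + 1) scale with a median of 6.59. The spread is far wider than that of Cd3e, and the lowest T-cell lineage fell within the L1210 range. The difference was 5.84 ± 0.42 (SE, limma adjusted p = 1.77e-20).

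Across the transcriptome, 11373 gene names passed a filter of ln(TPM + 1) above 1 in more than 10% of the cells of either type. A gene was called when its adjusted p was under 0.05 and its lineage means differed by at least 1 natural log unit. By this rule 2868 genes were called, or 25.2% of those tested, with 563 (4.95%) higher in T-cells and 2305 (20.3%) lower. The median difference over all genes tested was -0.41, that is, towards L1210, and T-cell libraries also had fewer genes above 0. With the number of genes above 0 TPM as a covariate, 2099 genes were called, 823 higher and 1276 lower, and the median moved to -0.15. Its part in the counts was not tested further. For 61 genes (0.536%) every T-cell lineage lay above every L1210 lineage, and for 100 (0.879%) every one lay below. The latter number was 160 without the L1210 lineage of cells L1210_8 and L1210_84, an exclusion chosen after seeing the data. L1210_8 had 2718 genes above 0 and 79.3% of its TPM in Rn45s.

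The 15 genes with the largest difference in favour of T-cells were those of receptor, coreceptor and killing, with a few others. Nkg7, a granule membrane protein, led with 6.62 ± 0.15 (SE, limma adjusted p = 9.12e-49). It was above 0 in every T-cell, at 8.79 TPM in the lowest, 808 at the median and 7801 in the highest. AW112010, a transcript annotated as a long non-coding RNA on chromosome 19, came next at 6.60, with a median of 799.8 TPM and no L1210 cell above 0. The adaptor gene Lat reached 6.01, the membrane protein genes Ms4a4b and Ms4a6b 5.91 and 5.39, the kinase gene Lck 5.81, the interleukin 2 receptor β chain gene Il2rb 5.63, S100a10 5.57 and the cathepsin gene Ctsw 5.54. The remaining CD3 chains stood at 5.72 for Cd3g and 5.40 for Cd3d. Of these 15 genes, 12 had lineage means that did not overlap between the cell types, and Gzmb, Cd8a and Cd8b1 each had 33 of 34 lineages above all of L1210.

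In the opposite direction, the 15 genes with the largest difference included several of B-cell development. Igll1 and Vpreb1, which encode the surrogate light chain of the pre-B-cell receptor, were at -6.09 ± 0.20 (limma adjusted p = 2.98e-40) and -5.88 ± 0.18 (limma adjusted p = 2.56e-42), and both were listed at 0 in all 97 T-cells. Cd79a, a signalling chain of the B-cell receptor, was above 0 in 10 T-cells with a highest value of 27.9 TPM, against a median of 426 TPM in L1210. Vpreb3, Blnk and Plcg2 lay between -5.38 and -5.21. Others were Mzb1 (-5.82), Crip2 (-5.75), the glucose transporter gene Slc2a3 (-5.71), Tmem119 (-5.66), the metallothionein genes Mt2 (-5.50) and Mt1 (-4.83), Cd81 (-5.07) and Alpl (-5.04). Metallothioneins bind zinc and copper. For Mt1 26 of 34 T-cell lineages lay below all L1210 lineages and for Mt2 30, and these numbers were 33 and 34 without the L1210 lineage of cells L1210_8 and L1210_84.

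**Figure D1:**
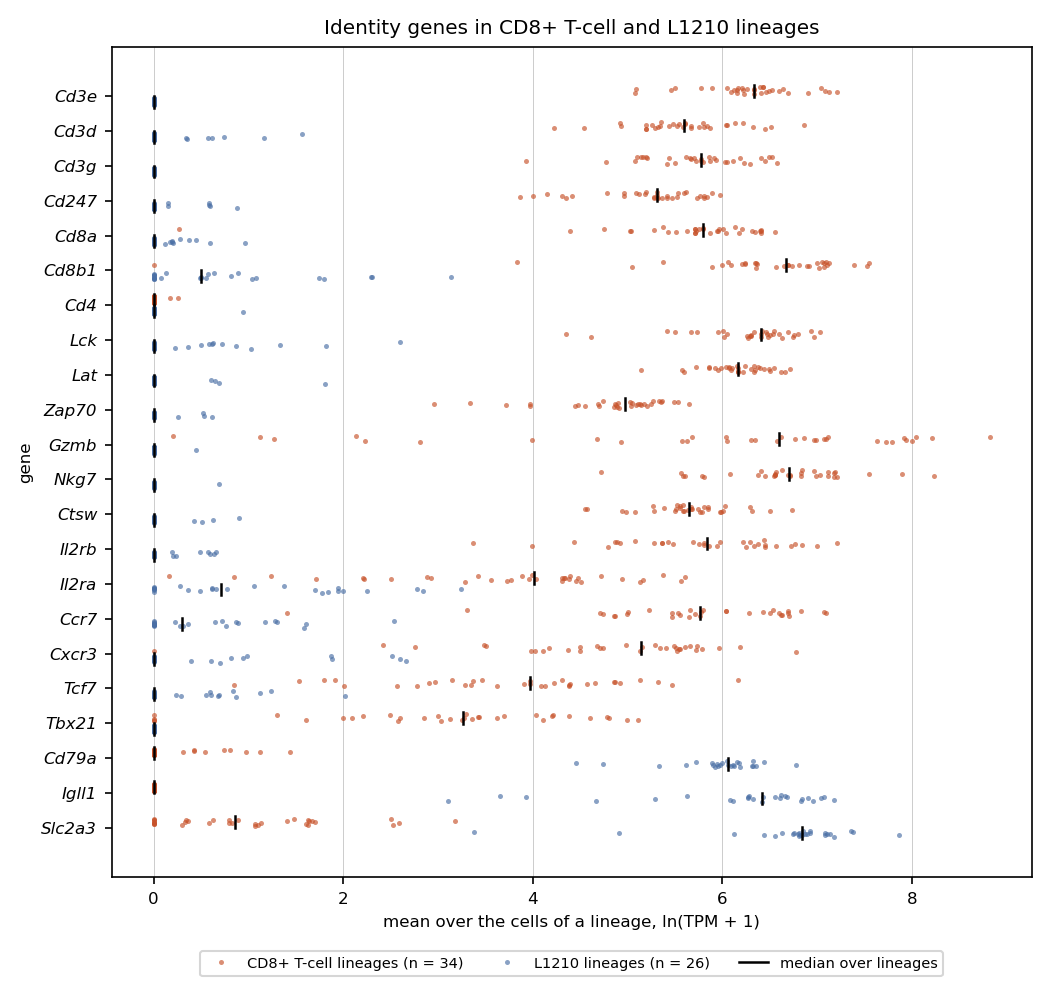
Lineage means of ln(TPM + 1) (x axis) for 22 genes (y axis), with 1 point per CD8+ T-cell lineage (orange, n = 34) or L1210 lineage (blue, n = 26) and a black bar at the median over lineages. Cd3e, Lat and Nkg7 separate the cell types without overlap, 1 T-cell lineage lies at 0.26 for Cd8a and at 0 for Cd8b1, and Gzmb spreads from 0.20 to 8.82.

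All 4 measured chains of the receptor complex (Cd3e, Cd3d, Cd3g and Cd247) were called higher, and the constant regions of the receptor itself were not analysed here. Of 25 genes of receptor-proximal signalling, 24 passed the filter, with a median difference of 3.25. Of the 24, 18 were called higher and 1 lower, beside 4.95% and 20.3% of all genes, and 5 neither. The kinase genes Lck (595 TPM at the median cell) and Zap70 (158 TPM), the adaptors Lat (529 TPM) and Skap1 (136 TPM), the glycoprotein Thy1 (262 TPM) and the adhesion receptor Cd2 (184 TPM) were the highest of those called. Rasgrp1, an activator of Ras, went the other way at -2.27 ± 0.24 (SE, limma adjusted p = 1.01e-12), with medians of 15.7 and 146 TPM. Sit1, Plcg1, Vav1 and Ptpn22 had differences between -0.22 and 0.31 and were not called.

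Of 20 genes for cytotoxic granules and killing, 13 passed the filter, and the 7 that did not pass were all granzymes. Of the 13, 8 were called higher and 1 lower, beside 4.95% and 20.3% of all genes. Nkg7, Gzmb and Ctsw have been given above. The death ligand gene Fasl was above 0 in 35 T-cells and in no L1210 cell, with a difference of 1.04 ± 0.22 (limma adjusted p = 5.48e-05). Rab27a and Unc13d, which act in granule docking and priming, were higher by 1.37 and 1.47. Perforin, which opens the target membrane, was scarcely seen: Prf1 was above 0 in 10 T-cells, at most 43.6 TPM, with a difference of 0.20 ± 0.092 (limma adjusted p = 0.0512). Among the 7 granzymes that did not pass the filter, Gzma was above 0 in 9 cells, Gzmc in 7, Gzmf in 4, Gzmd, Gzme and Gzmk in 1 each and Gzmg in none. The highest value of these genes was 139 TPM of Gzma. Gzmm passed the filter and was not called. Granzyme B was thus seen in more cells than any of these 7. Lamp1, a lysosomal membrane protein, was lower in T-cells, with a difference of -2.64 (limma adjusted p = 3.26e-13).

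Of 19 cytokine and chemokine genes, 10 passed the filter and 5 were called higher, none lower, beside 4.95% and 20.3% of all genes. Ltb and Lta, which encode both lymphotoxins, were the highest, at medians of 677 and 312 TPM and differences of 3.88 ± 0.24 and 1.74 ± 0.29 (limma adjusted p = 8.30e-24 and 4.56e-07). Xcl1, a chemokine for dendritic cells, was above 0 in 38 T-cells, up to 511 TPM, and Tnfsf8 and Tnfsf11 differed by 1.59 and 1.44. Il2, Il3, Il5 and Il13 were listed at 0 in all 97 cells, and Ifng, the hallmark cytokine of killer T-cells, was above 0 in 9 cells, at most 41.4 TPM. The cells had been given interleukin 2 in the medium.

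Next came receptors for cytokines and the genes of their signal. Of 22 genes, all passed, and 11 were called higher and 2 lower, beside 4.95% and 20.3% of all genes. With the covariate 14 were called higher and 1 lower. The 3 chains of the interleukin 2 receptor were all higher: Il2rb (383 TPM at the median) and Il2rg (599 TPM) in nearly all cells, and the inducible α chain Il2ra from 0 to 396 TPM with a median of 59.7. Il2ra lineage means ran from 0.16 to 5.61 and overlapped those of L1210 in 9 of 34 lineages. Cish, a feedback gene of the interleukin 2 signal, was higher by 3.92 ± 0.31 (limma adjusted p = 3.13e-18) at a median of 407 TPM. Il7r, the interleukin 7 receptor of resting and memory T-cells, was lower than in L1210, with a difference of -1.50 ± 0.26 (limma adjusted p = 9.31e-07), at a median of 0 TPM.

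Of 17 costimulatory and inhibitory receptors, 15 passed the filter. Of these 8 were called higher (11 with the covariate), none lower, beside 4.95% and 20.3% of all genes. Tnfrsf18, Cd27 and Cd226 had medians of 129, 74.9 and 46.9 TPM and the largest differences, 4.42, 3.93 and 3.50. The inhibitory receptor genes Ctla4 and Lag3, which T-cells acquire upon activation, were above 0 in 67 and 35 cells, and Pdcd1 was above 0 in 33 with a difference of 0.93, just short of the limit of 1. Cd28, the receptor that was engaged during activation, was at 23.9 TPM at the median against 18.9 in L1210 and was not called.

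Among 21 homing and adhesion genes, 11 were called higher and 4 lower, beside 4.95% and 20.3% of all genes, so the number lower is near the background. Ccr7, which guides T-cells to lymph nodes, was at 356 TPM at the median with a difference of 5.15 ± 0.24 (limma adjusted p = 4.06e-30). Cxcr3, a receptor for inflammatory chemokines, was at 203 TPM at the median with a difference of 4.16. Lymph-node and inflammatory homing genes were therefore both present in this population. Itga4, Itgb1, Cxcr4 and the activation marker Cd44 were lower than in L1210, with differences of -1.11, -1.78, -2.48 and -1.88.

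Transcription factors set the state of a T-cell. Of 26, 25 passed the filter, 11 were called higher and 5 lower, beside 4.95% and 20.3% of all genes, so the number lower is near the background. Tcf7, a factor of naive and memory cells, had a median of 55.0 TPM and Tbx21, which drives effector genes, one of 32.5 TPM, with differences of 3.37 ± 0.25 and 2.98 ± 0.28 (limma adjusted p = 1.84e-19 and 3.28e-15). Id2 and Id3, whose proteins inhibit E-box factors, were at 49.7 and 182 TPM, and Eomes was above 0 in 47 cells. Prdm1, which encodes the effector factor Blimp-1, did not pass the filter and was above 0 in 8 cells. Runx1, Irf8, Zeb2, Bcl6 and Myb were lower than in L1210, with differences of -2.65, -1.65, -2.67, -1.63 and -1.79.

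Of 14 genes of the immediate response to receptor engagement, 12 passed, none was called higher and 3 were called lower (3 of the 12, beside 20.3% of all genes): Jun (-1.39), Myc (-1.22) and Dusp2 (-1.19). With the covariate 1 was called lower. Nr4a1, a direct readout of receptor signalling, was above 0 in 13 cells, and Egr2 and Fos in 8 and 8. Of 12 BCL2 family genes 3 were called higher and 4 lower, beside 4.95% and 20.3% of all genes. The survival gene Bcl2 was higher by 3.57 ± 0.20 (limma adjusted p = 3.32e-26), while Bcl2l1, which encodes the related Bcl-xL, was lower, with a difference of -3.12 ± 0.25 (limma adjusted p = 1.17e-17).

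Of 16 genes of glycolysis, none was called higher and 1, Slc2a3, lower, beside 4.95% and 20.3% of all genes. The median difference was 0.05. Gapdh, Ldha, Eno1 and Aldoa were at 6691, 2558, 2184 and 1453 TPM at the median cell, with differences from L1210 of 0.52, 0.62, 0.67 and 0.18. Of 7 amino acid transporters, none was called higher and 4 were called lower, beside 20.3% of all genes lower. Among the 4 were both subunits of the large neutral amino acid transporter, Slc7a5 (-2.61) and Slc3a2 (-1.61). Of 24 genes of G1/S and replication 3 were called higher and of 32 genes of G2 and mitosis 4, which is 12.5% of each list beside 4.95% of all genes, and none was called lower in either list. With the covariate 9 of each list were called higher, beside 7.24% of all genes. Pcna, the replication clamp, was above 0 in all cells, between 64.8 and 2099.6 TPM. Mki67, a marker of cycling cells, was likewise above 0 in all 97 cells, from 0.6 to 208 TPM.

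Markers of other cell types were scarce. The summed TPM of 12 B-cell genes ran from 0 to 283 with a median of 20.3 over T-cells, against 583 to 6130 in L1210, and 6 of them, including Pax5, Ebf1, Vpreb1, Vpreb3 and Igll1, were listed at 0 in every T-cell. Cd79b was above 0 in 47 T-cells and up to 283 TPM, Cd72 in 37 and up to 80.8 TPM, and Cd22 in 23 and up to 2.17 TPM. Cd4 was above 0 in 2 cells, at most 1.81 TPM, and the sum of 6 CD4 and regulatory T-cell genes was between 0 and 39.5 TPM with a median of 0. Sums over myeloid and dendritic (0 to 83.5), erythroid and platelet (0 to 57.2) and stromal and endothelial genes (0 to 66.5) also had medians of 0. Natural killer genes gave 0 to 906 TPM with a median of 51.7, carried by the lectin-like receptor genes Klrd1, above 0 in 69 cells, Klrk1 (44 cells) and Klra7 (14 cells), which CD8+ T-cells can also express, while Ncr1 and Fcgr3 were listed at 0 in all cells.

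By level rather than by contrast, the libraries were led by Rn45s and then by genes of the cytoskeleton, translation and glycolysis. Actb had the highest mean of the other genes, 9616 TPM, followed by Eef1a1 (8614), Ppia (8308), Gm20594 (7456), Rplp0 (7098), Rps4x (6590.3) and Gapdh (6406). Of the 15 highest, Pfn1, which encodes the actin-binding protein profilin, was the one called between the cell types, at 1.18 ± 0.08 (SE, limma adjusted p = 1.15e-21), with no overlap of lineages.

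To ask which genes vary most between the T-cells, each gene's SD of ln(TPM + 1) over the 97 cells was set against the running median SD of genes of like mean. The 20 genes farthest above it were taken from 9997 that passed the filter in T-cells. Gzmb was 3rd, with an SD of 2.60, 1.84 above the running median. Its lower quartile was 158 TPM and its upper quartile 2102 TPM. Ly6c2, which encodes the surface protein Ly6C, was 4th with an SD of 3.02 and quartiles of 0 and 678 TPM. Also among the 20 were Cd8b1, Ly6a, the metallothionein gene Mt1, the cell-cycle regulator Rgcc, the stress gene Gadd45g, the mitotic gene Ube2c, the histone genes Hist1h2ap and Hist2h3b, Xist, Rpl26, Ndufs5 and the microRNA names Mir5109 and Mir5123. Without the CD8-low lineage Cd8b1 fell to rank 321, and 18 of the 20 genes were again among the highest 20. This ranking is a description without a test. Xist, last of the 20, stood 0.80 above the running median, and Id3, the first gene outside, 0.80 above it.

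**Figure D2:**
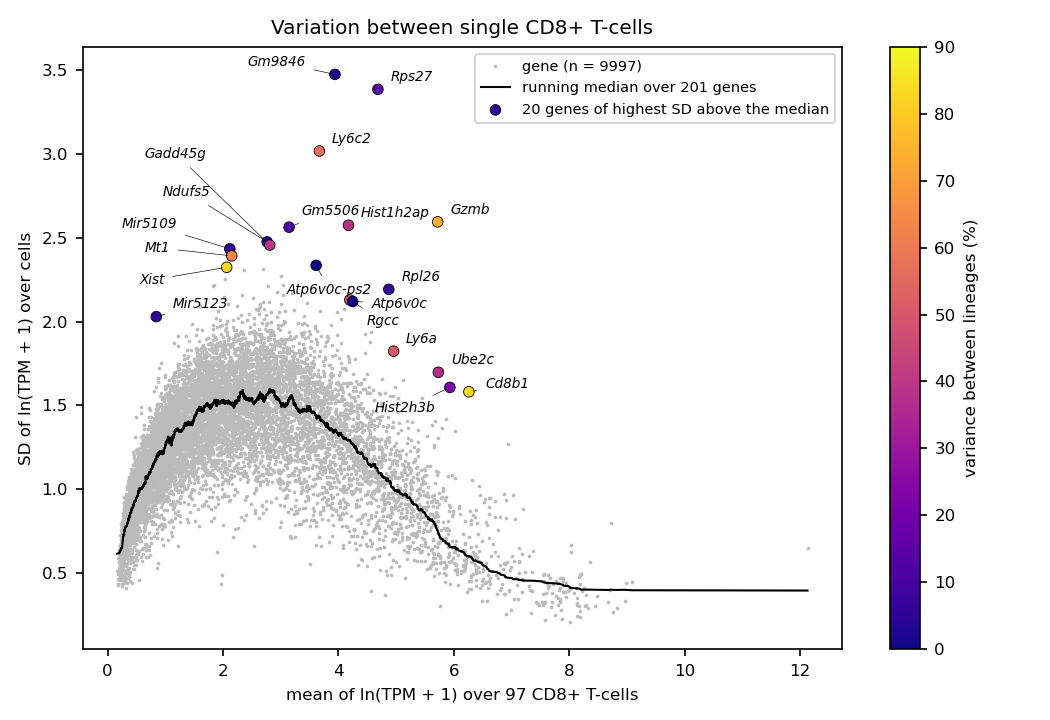
SD of ln(TPM + 1) over the 97 CD8+ T-cells (y axis) against the mean (x axis), with 1 grey point per gene (n = 9997) and the running median as a line. The 20 genes farthest above the line are named and coloured by the share of their variance between lineages, which is 73.6% for Gzmb and 1.07% for Gm9846.

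The highest 2 of the ranking, Rps27 (SD 3.39) and Gm9846 (SD 3.48), share sequence. RefSeq lists Gm9846 as an older name of Rps27rt, a retrogene of the ribosomal protein gene Rps27, and 93.3% of the 25-base words in its transcript also stand in those of Rps27. In 33 cells Rps27 alone was above 0, in 28 Gm9846 alone and in 36 both, with a Spearman rho of -0.68 over cells. The sum of both names had an SD of 0.57. Atp6v0c and its pseudogene Atp6v0c-ps2, 16th and 13th of the 20, share 94.3% of the words of the pseudogene and had SDs of 2.12 and 2.34 alone and 0.66 summed. Gm5506, which RefSeq lists under Eno1b, shares 83.5% of its words with Eno1, with SDs of 2.56 alone, 0.49 for Eno1 alone and 0.44 for the sum. No cell had Gm5506 without Eno1, whose level sets the sum, and rho was -0.03, so these values do not show a division between the 2 names. How a cell's reads divide between such names is uncertain, and the single values of these 5 genes carry that uncertainty.

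**Figure D3:**
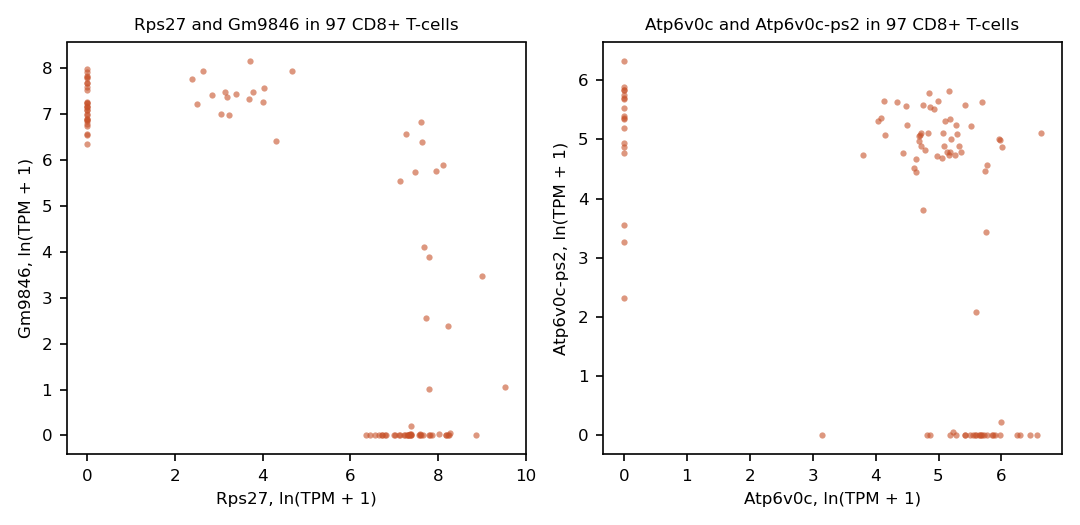
ln(TPM + 1) of Rps27 against Gm9846 (left) and of Atp6v0c against Atp6v0c-ps2 (right), with 1 point per CD8+ T-cell (n = 97). In the left panel 1 of both names is at exactly 0 in 61 of the 97 cells, and in the right panel in 43, while 54 cells there have both names above 0.

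The share of variance between the 27 lineages of 2 or more cells was 1.07% for Gm9846, 13.1% for Rps27, 12.2% for Gm5506, 6.79% for Rpl26, 2.03% for Ndufs5 and 0% for Atp6v0c and Atp6v0c-ps2, beside a median of 9.02% over all genes. It was 73.6% for Gzmb, 56.8% for Ly6c2, 63.025% for Mt1, 50.2% for Ly6a and 49.8% for Rgcc. Median differences between cells for Ly6c2 were 0.52 natural log units in 43 sister pairs, 0.95 in 73 cousin pairs and 3.04 in 4541 pairs of different lineages, and for Gzmb 0.61, 0.71 and 1.90. In the 40 sister pairs outside the lineages with both Xist and Y-linked transcripts they were 0.49 for Ly6c2 and 0.63 for Gzmb. For Rps27 they were 3.23, 3.05 and 3.52. The pairs follow the relation labels, which are not all exact. Cell CD8_62 names CD8_60 both as sister and as cousin, and cell CD8_65 names as a cousin CD8_59, which belongs to another lineage.

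To ask which genes differed between lineages by more than between the cells of 1 lineage, a limma F test was run over the 90 cells of these 27 lineages. Single cells were the units of this test, and sisters and cousins within a lineage were treated as independent. At an adjusted p under 0.05, 1289 of 9997 genes were called, or 12.9%. The number was 995 without the CD8-low lineage and 1422 without the 3 lineages with both Xist and Y-linked transcripts, and it was 220 within the Xist lineages alone (11 lineages) and 432 within the Y-linked lineages alone (13 lineages), which also hold fewer cells. Lane, mouse and handling are shared by the cells of a lineage and cannot be told apart from descent. Times since division are also alike within a lineage, with a median range of 0.19 h and a highest of 1.02 h, and the part of time in these calls was not tested.

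The genes of lowest p included both CD8 chains. For Cd8a 88.6% of the variance lay between lineages (limma adjusted p = 7.99e-21), but without the CD8-low lineage it was 33.4% (limma adjusted p = 0.0666), so this call rests on that lineage. For Cd8b1 the share was 83.7% (limma adjusted p = 1.28e-20) and 46.7% without it (limma adjusted p = 6.785e-05). Lineage 31 was the next lowest for Cd8b1, at 34.8 to 53.7 TPM (mean 3.83, against a median of 6.69 over lineages other than the CD8-low one). Its part in the remaining Cd8b1 call was not tested. Within the Xist lineages, neither Cd8a (8.58%, limma adjusted p = 0.727) nor Cd8b1 (17.6%, limma adjusted p = 0.223) was called. The CD8-low lineage is one of the Y-linked lineages, where the shares were 93.5% and 97.3%. Cd3e did not pass in the full set, with 6.96% between lineages (limma adjusted p = 0.298).

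Gzmb held under each of these restrictions. Between lineages lay 73.6% of its variance (limma adjusted p = 6.24e-15), 72.7% without the CD8-low lineage (limma adjusted p = 1.75e-13), 58.5% within the Xist lineages (limma adjusted p = 0.00103) and 46.8% within the Y-linked lineages (limma adjusted p = 0.00121). Cells of 1 lineage were close in some lineages and far apart in others. Among high lineages, the 2 cells of lineage 5, whose labels are treated as doubtful, had 6171 and 7488 TPM. The cells of lineage 4 had 2764 and 3501 TPM, and lineage 31 ran from 2078 to 5687 and lineage 10 from 862 to 4875 TPM. Among low lineages, lineage 3 had 0, 0 and 0.84 TPM, lineage 2 had 0.83, 0.90 and 229.8 TPM, and lineage 19 ran from 0 to 158 and lineage 1 from 0 to 516 TPM. Lineage 8 ran from 54.4 to 2571 TPM. The low lineages named here are all counted as carrying Xist, while lineages 10 and 31 carry Y-linked transcripts. The other way round, lineage 4 is counted as carrying Xist, and lineage 12, with 0 and 272 TPM, carries Y-linked transcripts. The share between lineages was lower within each class than over all lineages. The part of sex or mouse in these levels was not tested.

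Other genes of lowest p were Xist (83.2%), Tubb6, a β-tubulin (70.5%), the nucleolar gene Npm1 (69.1%), Ms4a4b (67.5%), Mt2 (67.3%), S100a4 (66.4%) and the polyubiquitin gene Ubb (66.1%), which also rose with time since division. Tubb6, S100a4 and Mt2 were listed at 0 at the median cell, so these 3 genes were found in some lineages and not in others: Tubb6 lineage means ran from 0 to 5.52, S100a4 from 0 to 6.18 and Mt2 from 0 to 4.99. Within the Xist lineages Mt2 did not pass the filter. There Gzmb, Ms4a4b, S100a4 and Ubb passed the test, while Tubb6 (limma adjusted p = 0.270) and Npm1 (limma adjusted p = 0.0685) did not.

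By gene list, 0 of 4 CD3 chains were called between lineages, with 12.9% of all genes as the background. Called were 13 of 20 homing genes, 8 of 15 costimulatory and inhibitory receptors, 7 of 9 cytokines and all 4 tested natural killer genes. Of 32 genes of G2 and mitosis 16 were called, and 12 of this list had rising slopes with time at an unadjusted p under 0.05. Lists less particular to T-cells also lay above the background, with 5 of 16 glycolysis, 7 of 24 G1/S and replication and 4 of 12 BCL2 family genes. Receptor-proximal signalling had 10 of 24 and transcription factors 9 of 23, while amino acid transport had 1 of 7. No test of one list against another was made. Lineage means of Itgae, an integrin of tissue-resident T-cells, ran from 0 to 5.50 (62.5% between lineages, limma adjusted p = 9.92e-08), those of Il2ra from 0.16 to 5.61 (64.5%, limma adjusted p = 3.97e-08) and those of Ctla4 from 0 to 5.16 (51.7%, limma adjusted p = 1.13e-05). Klrd1 lineage means ran from 0 to 5.83 (61.9%, limma adjusted p = 2.12e-08), and Klra7, listed at 0 in most cells, reached 5.96 in its highest lineage.

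**Figure D4:**
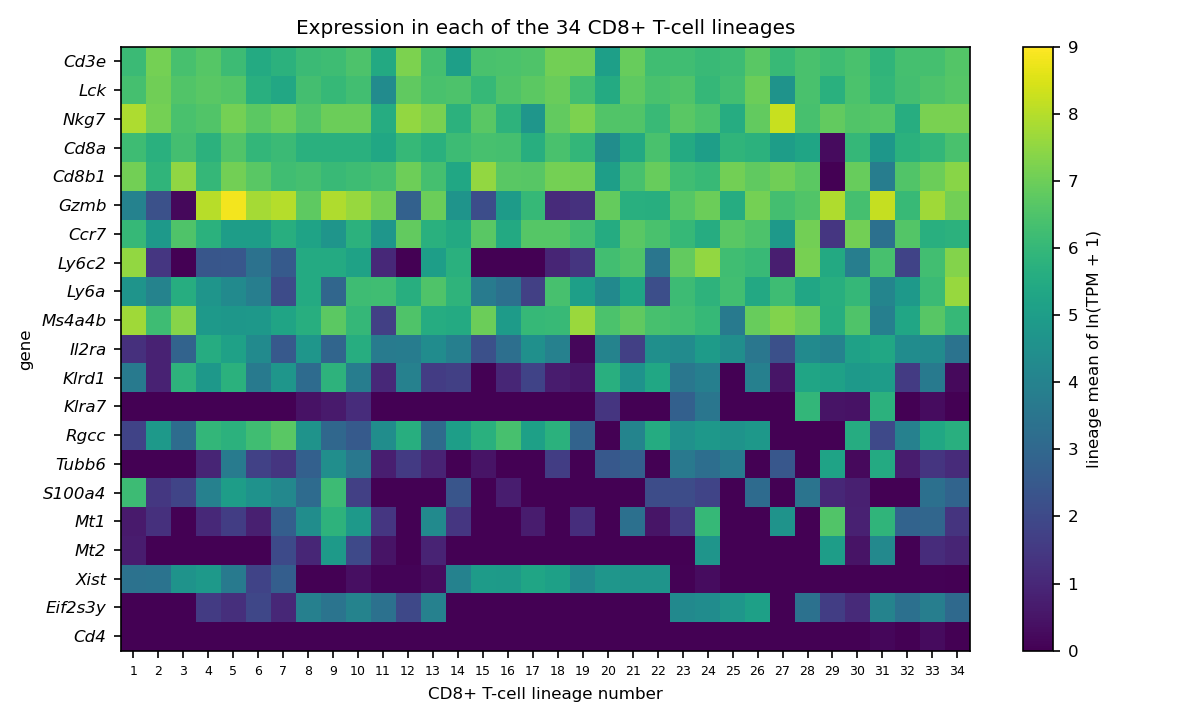
Lineage means of ln(TPM + 1) (colour) of 21 genes (y axis) in each of the 34 CD8+ T-cell lineages (x axis, lineage number). Cd3e, Lck and Nkg7 are high in all lineages, Gzmb, Ly6c2 and Klrd1 differ from lineage to lineage, and lineage 29 is dark for Cd8a and Cd8b1 and bright for Gzmb and Mt1.

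The CD8-low lineage had 145 genes below and 98 above all other lineages, beside ranges of 0 to 1077 and 27 to 1056 over the 34 lineages. Both upper ends belonged to lineages of 1 cell. Over the lineages of 4 cells, like this one, the ranges were 0 to 181 and 27 to 272, and only lineage 19 had more genes below all others. Apart from the CD8 chains it was the lowest for Ccr7, at 4.46, 0, 50.7 and 0 TPM in its 4 cells (mean 1.41, against 3.31 for the next lineage), for the tubulin gene Tuba1a (10.0, 0, 280.1 and 0 TPM), Glipr2, Nfatc2 and the adaptor gene Skap1. It was the highest for the histone gene Hist1h2ap (2536, 6717, 501 and 2815 TPM), for Mt1 (789, 627, 554 and 950.4 TPM), for the chemokine receptor gene Ccr8 and for Klrc1, a natural killer receptor gene (0, 33.3, 141.7 and 68.9 TPM). These genes were chosen after their values were seen, as those farthest from the other lineages, and are given without a test. Of the genes that mark innate-like or γδ T-cells, Sox13, Zbtb16 and Blk were measured and did not pass the filter, and the receptor genes of that list were not analysed here. The filter asks for more than 10% of all T-cells, so a gene found only in these 4 cells could not pass it. Not passing therefore says nothing on the kind of T-cell in this lineage. Blk was listed at 0 in every T-cell.

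The genes whose lineage means were most like those of Gzmb were ranked by Spearman rho over the 34 lineages, as a description. The 10 highest were Gadd45gip1 (0.78), Uqcrfs1 (0.76), Timm8a1 (0.76), Sdf2l1 (0.75), Nip7 (0.75), Rrp9 (0.75), Irf8 (0.75), Phb2 (0.74), Pdap1 (0.74) and Eef1e1 (0.74). The 5 lowest were Sp100 (-0.73), Scml4 (-0.63), Add1 (-0.57), Ms4a6b (-0.57) and Ifi47 (-0.57), and the median over all genes was 0.12. The lineages share libraries of unequal detection: Gzmb itself had a rho of 0.47 with the mean number of genes above 0 TPM. Within the 13 Xist lineages the 10 values ran from 0.16 (Eef1e1) to 0.88 (Timm8a1) and within the 17 Y-linked lineages from 0.37 (Timm8a1) to 0.77 (Pdap1).

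Time since division was the one measured condition along which the T-cells differed. Slopes of ln(TPM + 1) per hour were fitted by limma to the 31 lineages with a recorded time, whose mean times ran from 0.5 to 9.39 h. Of 9967 genes 9 were called, or 0.0903%, while 1290 had an unadjusted p under 0.05, 221 rising (2.22%) and 1069 falling (10.7%). The 4 that rose were genes of protein turnover and mitosis: Ubb by 0.13 ± 0.023 per hour (SE, limma adjusted p = 0.0108), Tubb4b by 0.13 ± 0.027 (limma adjusted p = 0.027), the mitotic kinase Cdk1 by 0.26 ± 0.055 (limma adjusted p = 0.0275) and the importin gene Kpna2 by 0.28 ± 0.06 (limma adjusted p = 0.0429). The 5 that fell were Ung, a uracil glycosylase of S phase, at -0.45 ± 0.089 (limma adjusted p = 0.0264), the G1/S cyclin Ccne2 at -0.36 ± 0.071 (limma adjusted p = 0.0264), Tubgcp4 at -0.32, Mgat2 at -0.32 and Esyt1 at -0.24. Dynlt1a had a slope of 0.39 that was not called (limma adjusted p = 0.0787).

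Over the lists, 10 of 24 G1/S and replication genes had an unadjusted p under 0.05 with a falling slope and none with a rising one. Of 32 G2 and mitosis genes, 12 had one with a rising slope and none with a falling one. Beside these stand 10.7% of all genes falling and 2.22% rising, so falling slopes were the more common in general. None of Cd8a, Cd8b1, Cd3e and Gzmb had an unadjusted p under 0.05 with time. With the 27 lineages of 2 or more cells, 8 genes were called, 7 rising and 1 falling. The number of calls depended on single lineages: it ran from 0 to 18 when each lineage was left out in turn, with 0 without lineage 1, 1 without lineage 30, 2 without lineage 12, 4 without lineage 15, 5 without lineage 2, 14 without lineage 23 and 18 without lineage 24. Mean time had a Spearman rho of -0.18 with the mean number of genes above 0 TPM over the 31 lineages.

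Whether a slope differed between T-cells and L1210 was tested by the interaction of time and cell type, over 31 and 26 lineages. Of 11360 genes 1 was called (0.0088%), Ubb, with a slope of 0.13 per hour in T-cells and -0.00172 in L1210, a difference of 0.13 ± 0.026 (SE, limma adjusted p = 0.0331). The T-cells ran from 559 to 10531 TPM of Ubb with a median of 2687, and L1210 had a median of 1479 TPM. The next genes, Etv3, Tubgcp4, Cfl2, Pld4 and Esyt1, had a limma adjusted p of 0.150. When L1210 lineages were limited to the time range of the T-cells (20 lineages), the difference for Ubb was 0.13 (limma adjusted p = 0.387) and Tubb4b was called in its place (0.23, limma adjusted p = 0.0145), and leaving out 1 lineage at a time took the call of Ubb away in 17 of 57 cases.

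**Figure D5:**
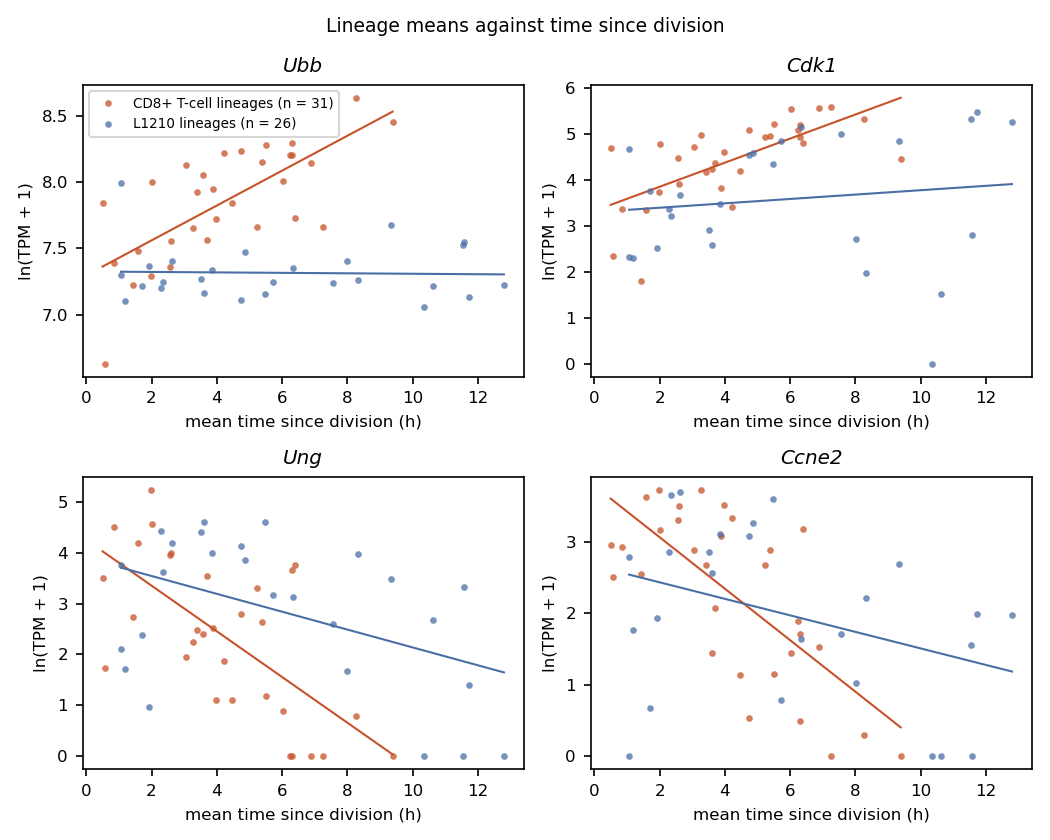
Lineage means of ln(TPM + 1) (y axis) against the mean time since division in hours (x axis) for Ubb, Cdk1, Ung and Ccne2, with 1 point per lineage (orange, 31 CD8+ T-cell lineages, blue, 26 L1210 lineages) and a least-squares line per cell type. Ubb rises with time in T-cells (slope 0.13) and is flat in L1210 (slope -0.0017). Cdk1 rises in T-cells (0.26), and Ung and Ccne2 fall in T-cells (-0.45 and -0.36). Of these genes only Ubb was called for a difference in slope between the cell types.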

How the data were processed

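Single cells of both types were released from a microfluidic trap after about 2 divisions and sequenced with Smart-Seq2. The authors estimated expression with RSEM 1.2.3 against mm10 and UCSC genes, and the deposited TPM values (transcripts scaled to length and library total, not logged) were used as they stand: 23420 gene names, of which 27 had been turned into dates and 2 occurred more than once, with every library summing to 1000000. TPM were scaled by transcript length and hold no read depth, so precision was judged from lineages. The submitters' processing notes also name bcl2fastq, TopHat2 and GenomeStudio.

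Doublets and cells under 1000 genes above 0 TPM were left out. Values were transformed as ln(TPM + 1), which understates the change of low genes, and genes with values over 1 in more than 10% of cells were kept. Lineages were built from sister and cousin labels, of which 3 were stated by 1 partner only. Lineage means (cells for the test between lineages) were tested with limma 3.58.1 in R 4.3.3 (empirical Bayes with trend, Benjamini-Hochberg adjustment, threshold 0.05, and a difference of at least 1 for the comparison with L1210). The limma fits were tested on simulated data. Descriptions used Python 3.11.15 with numpy 2.4.6, pandas 2.3.3, scipy 1.17.1 and matplotlib 3.10.9. No 2 libraries were identical.

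Named were members of the gene lists (those of highest level and those going against their list), the 15 genes of largest difference in each direction, the 20 most variable, the 10 of lowest p between lineages, the 5 of lowest p in each direction with time and in the slope difference, the 15 of highest mean TPM and the 10 most and 5 least like Gzmb. The members and the lists were chosen with earlier results of these data known. Alternatives were pseudocounts of 0.1 and 10, gene filters of 50% and none, a minimum of 4000 genes, the number of genes above 0 as a covariate, values rescaled without Rn45s, lineages of at least 2 cells, weights by cells, single libraries or lineages left out, and the sex-linked classes apart. Some items are not reported here.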

Additional observations from a re-analysis of the deposited data

Results flagged for a closer look

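The slope of Ubb per hour since division differed between the cell types by 0.133 natural log units in the interaction test, which drew attention because no other gene passed it (limma adjusted p = 0.0331). Ubb was not called when L1210 lineages were limited to the time range of the T-cells (limma adjusted p = 0.387). Leaving out 1 lineage at a time took its call away in 17 of 57 cases.

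Some libraries that no comparison used also held T-cell transcripts. The 4 libraries labelled as CD8+ doublets had at least 903 TPM of Cd3e, and the highest Cd3e among the 5 libraries with under 1000 genes was 1012 TPM, in a library with 529 genes above 0. The other 4 of these 5 libraries had Cd3e listed at 0, and 2 of them had Cd8a, Cd8b1 and Gzmb at 0 as well. Cd3e was listed at 0 in all retained L1210 cells.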

How the results depend on the processing

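The comparison with L1210 called 5305 genes (919 higher, 4386 lower) with a pseudocount of 0.1 and 653 (232 higher, 421 lower) with 10, and 1276 lower with the number of genes above 0 as a covariate. Over 145 named genes, taken only from those called in the comparison with L1210, 1653 of 1726 values over all settings kept direction and call. Of the rest 73 lost the call and 0 reversed, and 53 of the 73 were at a pseudocount of 10. Named genes that were not called are not part of this tally. Differences between lineages were called for 220 genes within the Xist lineages and 432 within the Y-linked ones, restrictions added after seeing the data, as were those without lineage 29 or the lineages with both transcripts. With time, 5 genes were called at a pseudocount of 0.1, 14 at 10, 3 with no gene filter, 24 with at least 4000 genes per cell, 17 with the covariate and 19 with weights by cells, and from 0 to 18 when 1 lineage was left out. The slope difference was called for 2 genes at a pseudocount of 10, 0 with no filter (Ubb adjusted p = 0.0551 by limma), 2 with the covariate, 0 without Rn45s (Ubb adjusted p = 0.0964), and from 0 to 4 when 1 lineage was left out. At unadjusted p under 0.05, 1227 slope differences passed. The cause was not tested. No paired analysis was possible because shared replicate numbers only name single cells. TPM keep no depth, which limits statements on genes listed at 0.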
